A study of Mus musculus with 20 samples.

Results

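Immediate early genes are transcribed within minutes of a stimulus without new protein synthesis, and 10 of them are described here in immune cells sorted from mouse tumours: Fos, Fosb, Jun, Junb, Egr1, Egr2, Egr3, Ier2, Atf3 and Dusp1. They were chosen by name, and all transcript rows of each gene were summed, which gave 10 genes of the 55260 in the table. All 10 were counted in every library and passed the filter on low counts in all comparisons. The study asked how blocking the phagocytosis checkpoint receptor SIRPa, with or without blocking PD-1, changes immune cells of irradiated tumours.

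C57BL/6 mice bore MC38-OVA tumours, a mouse colon carcinoma line that expresses ovalbumin as a model antigen. Groups received focal radiotherapy of 8 Gy on day 12 alone, radiotherapy plus anti-SIRPa antibody (400 µg on days 12, 14 and 16), radiotherapy plus anti-PD-1 antibody (250 µg on days 12 and 15), radiotherapy plus both antibodies, or none of these; the series' design text describes the last group as sham-irradiated. Tumours were taken on day 17, which was 5 days after irradiation, dispersed into single cells and sorted into CD8 T cells, CD11c+CD11b- cells, CD11c+CD11b+ cells and CD11c-CD11b+ cells. Each of the 20 combinations of 4 populations and 5 treatments is 1 library, made from leukocytes pooled from 10 tumours, 1 per mouse, so no group has replicates and the spread between mice was not measured. Antibodies were given only to irradiated mice. Whether 1 pool of tumours supplied all 4 sorted fractions under a treatment is not given in the labels. RNA was extracted right after the sort, and levels in the tumour and changes during dispersal and sorting cannot be told apart here.

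Libraries held 21522743 to 35696925 estimated counts. Sort labels were checked against marker lists, given as summed CPM over a list (CPM are counts scaled to a common library total). CD8 T cell markers summed to 4228 to 6690 CPM in the 4 irradiated CD8 T libraries, against 293 CPM in the library labelled untreated CD8 T, where Cd8a was at 48.2 CPM and 12 macrophage markers summed to 19290 CPM, against 1270 to 2845 CPM in the irradiated ones. The library labelled untreated CD8 T therefore goes against its label and is given below as a value only, outside all main tests. Macrophage markers summed to 12250 to 15060 CPM in irradiated CD11c+CD11b+ cells, 4705 to 9022 CPM in irradiated CD11c-CD11b+ cells and 566 to 1173 CPM in irradiated CD11c+CD11b- cells. NK cell markers summed to 2647 to 3618 CPM in irradiated CD11c+CD11b- cells, against 65.7 to 122 CPM in irradiated CD11c+CD11b+ cells. In bulk libraries such as these, fewer cells of a type and less RNA per cell cannot be told apart.

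The products of these genes fall into a few roles. Fos and FosB pair with Jun or JunB to form AP-1, a basic leucine zipper factor that binds a short palindrome and turns on later genes. Egr1, Egr2 and Egr3 are zinc finger factors that bind a GC-rich site; Egr2 and Egr3 are known in T cells as genes that respond to antigen receptor signals. Atf3 is a stress-induced basic leucine zipper factor that often acts as a repressor in macrophages, Ier2 is a short nuclear protein of less defined function, and Dusp1 is a phosphatase that switches off the p38 and JNK kinases. Transcription of the group is driven by serum response factor at CArG boxes and by CREB at cAMP response elements (CRE). These genes are also known to respond when tissue is dispersed into single cells.

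RefSeq (GRCm38.p6) gave promoters for 7 of the 10 genes, as 300 bases running from 250 before the transcription start to 50 after it (Egr1, Egr3 and Ier2 have none here, and Egr2 has several). The 5 below belong to Fos, Dusp1 and Atf3, the members with the widest gap below CD11c+CD11b+ cells in the CD11c+CD11b- population, to Fosb, which was among those with the smallest difference, and to Egr2, which carries the CArG box. They are on the strand of the gene, 5′ to 3′, and capitals mark TATAAA in Fos, the CRE TGACGTCA in Dusp1, the EGR site GCGNGGGCG in Fosb and the CArG box in Egr2, while Atf3 is in lower case throughout.
Fos, chr12:85473640-85473939, plus strand: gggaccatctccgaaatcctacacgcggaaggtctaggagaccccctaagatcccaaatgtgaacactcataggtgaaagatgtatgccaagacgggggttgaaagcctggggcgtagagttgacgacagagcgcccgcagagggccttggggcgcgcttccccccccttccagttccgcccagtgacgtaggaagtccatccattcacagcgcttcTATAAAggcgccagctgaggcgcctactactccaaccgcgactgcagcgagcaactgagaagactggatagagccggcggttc
Dusp1, chr17:26508423-26508722, minus strand: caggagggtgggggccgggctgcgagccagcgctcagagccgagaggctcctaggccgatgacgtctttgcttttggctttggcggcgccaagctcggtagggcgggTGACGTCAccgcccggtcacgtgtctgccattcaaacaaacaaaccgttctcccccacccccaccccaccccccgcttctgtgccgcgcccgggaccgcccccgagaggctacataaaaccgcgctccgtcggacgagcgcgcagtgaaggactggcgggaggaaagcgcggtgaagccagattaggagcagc
Atf3, chr1:191183284-191183583, minus strand: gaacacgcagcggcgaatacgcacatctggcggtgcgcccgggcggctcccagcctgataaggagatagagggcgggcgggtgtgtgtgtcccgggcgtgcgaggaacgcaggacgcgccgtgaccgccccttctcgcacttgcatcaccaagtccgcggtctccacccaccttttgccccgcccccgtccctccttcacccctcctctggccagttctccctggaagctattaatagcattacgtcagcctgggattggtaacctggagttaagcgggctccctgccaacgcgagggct
Fosb, chr7:19309996-19310295, minus strand: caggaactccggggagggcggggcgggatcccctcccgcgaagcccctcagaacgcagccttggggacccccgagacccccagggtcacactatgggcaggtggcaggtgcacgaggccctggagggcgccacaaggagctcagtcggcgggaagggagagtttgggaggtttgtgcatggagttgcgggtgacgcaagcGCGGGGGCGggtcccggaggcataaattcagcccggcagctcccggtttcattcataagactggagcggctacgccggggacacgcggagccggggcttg
Egr2, chr10:67537619-67537918, plus strand: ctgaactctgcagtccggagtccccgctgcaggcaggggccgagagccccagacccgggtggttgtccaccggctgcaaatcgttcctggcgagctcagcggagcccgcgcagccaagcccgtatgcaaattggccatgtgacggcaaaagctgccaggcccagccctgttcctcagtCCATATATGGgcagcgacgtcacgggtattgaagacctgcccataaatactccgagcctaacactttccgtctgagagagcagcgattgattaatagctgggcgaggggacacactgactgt

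Each motif was searched by its letters on both strands, and positions are counted from the start, with negative numbers before it. Dusp1 carried the full CRE at -143 to -136, which 1.79% of the 32851 promoters in the table hold. TGACG, the first 5 letters of the CRE and so found again inside it, was in 6 of the 7 members (all but Jun) and in 20.81% of all promoters; in Fos it stood at -129 to -125 and at -66 to -62, with TATAAA at -33 to -28 (13.62% of all promoters). The printed Egr2 promoter held the CArG box at -72 to -63 (1.629% of all promoters), and Fosb held the EGR site at -50 to -42 (5.552% of all promoters). Egr2 has other promoters, and the one at chr10:67535249-67535548 held none of these motifs. The AP-1 site TGANTCA, which 7.808% of all promoters hold, was in none of the 7. A match is a description of letters and no evidence of binding.

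Levels are given below as CPM with library sizes scaled by the trimmed mean of M-values. Per kilobase of transcript, which is the scale on which genes can be compared, Fos was the highest member in irradiated CD11c+CD11b+ cells at 1208 ± 70.5 CPM per kb (SD, n = 4 irradiated libraries), followed by Dusp1 at 678 ± 52.1 and Junb at 516 ± 19.5, and the lowest were Egr2 at 18.1 ± 1.38 and Egr3 at 2.01 ± 0.697. In irradiated CD8 T cells the order was different. Junb at 331 ± 42.0 and Fos at 322 ± 61.8 CPM per kb led within each other's spread, Fosb followed at 259 ± 51.9, and Egr3 at 13.3 ± 1.48 stood above Egr2 at 8.62 ± 0.864. Together the 10 genes took 0.300 to 0.469% of the counts in irradiated CD8 T libraries, 0.394 to 0.451% in irradiated CD11c+CD11b- libraries, 0.727 to 0.762% in irradiated CD11c+CD11b+ libraries and 0.756 to 0.839% in irradiated CD11c-CD11b+ libraries. By CPM per kb, Fos ranked between 32 and 281 among the 55260 genes of a library, and Egr3 between 5337 and 13411.

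**Figure D1:**
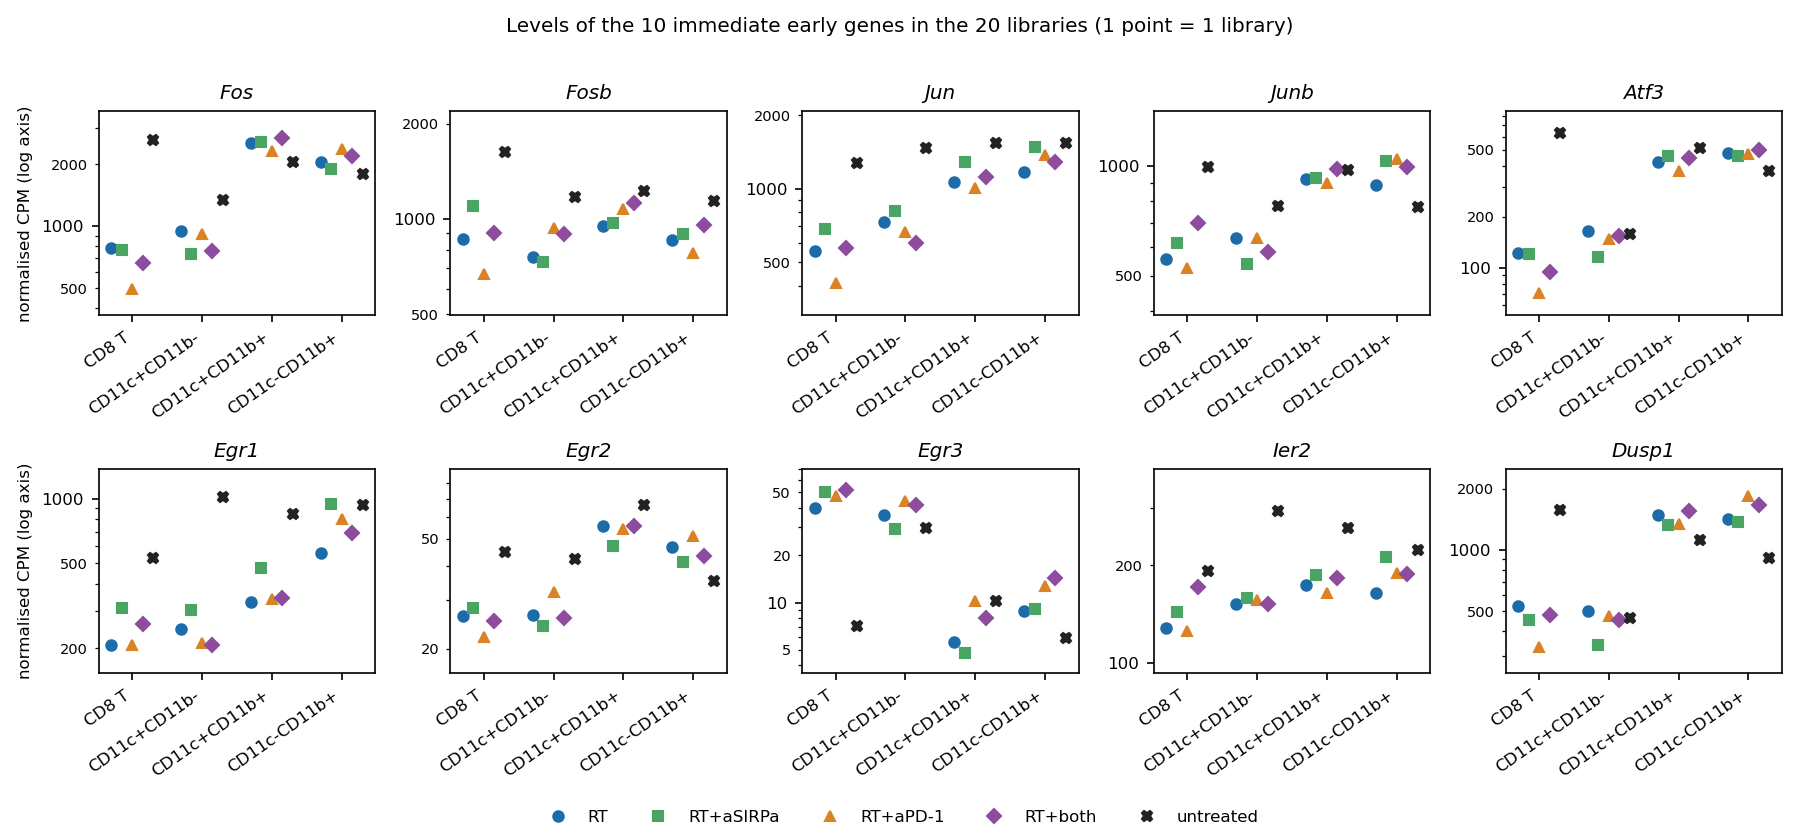
Normalised CPM (log axis) of the 10 genes, 1 panel per gene, in 4 sorted populations; the 5 markers of a population are its single libraries after radiotherapy alone, with anti-SIRPa, with anti-PD-1, with both, and untreated. Fos, Atf3 and Dusp1 sit higher in the 2 CD11b+ populations than in the irradiated CD8 T and CD11c+CD11b- libraries, and Egr3 sits higher in irradiated CD8 T and CD11c+CD11b- libraries than in either CD11b+ population.

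Populations were compared first, since this contrast separated the members most. CD11c+CD11b- cells were set against CD11c+CD11b+ cells over the 5 treatments, with treatment as a term. Of the 10 genes, 9 passed at an edgeR adjusted p of 0.05, with 8 lower and 1 higher in CD11c+CD11b- cells; 41.6% of the 20905 genes tested passed in this comparison, so the 2 populations differed across much of the transcriptome. The median log2 fold change was -0.58 over the members and 0.00 over all genes tested.

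Among the AP-1 subunits, Fos differed most. In CD11c+CD11b- cells Fos had 942 CPM after radiotherapy alone, 732 with anti-SIRPa, 921 with anti-PD-1 and 759 with both, against 1334 CPM in the untreated library. Fos in CD11c+CD11b+ cells had 2529.5, 2579, 2332 and 2684 CPM in the irradiated libraries, against 2053 CPM in the untreated one. Every CD11c+CD11b- library lay below every CD11c+CD11b+ library (log2 -1.42 ± 0.18, edgeR adjusted p = 0.000747). Jun, the main partner of Fos, was lower in CD11c+CD11b- cells (log2 -0.56 ± 0.11, edgeR adjusted p = 0.00657), as was Junb (log2 -0.59 ± 0.08, edgeR adjusted p = 0.00129). Fosb differed least of the subunits: it had 730.2 to 935 CPM in irradiated CD11c+CD11b- cells against 952 to 1120.3 CPM in irradiated CD11c+CD11b+ cells, which lie next to each other without overlap, and passed at log2 -0.28 ± 0.07, edgeR adjusted p = 0.0176.

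The 3 EGR genes did not go the same way. Egr3 had 36.0 CPM after radiotherapy alone, 29.3 with anti-SIRPa, 44.2 with anti-PD-1 and 41.3 with both, against 29.9 CPM in the untreated library in CD11c+CD11b- cells. In CD11c+CD11b+ cells Egr3 had 5.58, 4.80, 10.3 and 8.02 CPM in the irradiated libraries, against 10.2 CPM in the untreated one. The ranges are far apart, and Egr3 was the 1 member that was higher in CD11c+CD11b- cells (log2 2.25 ± 0.18, edgeR adjusted p = 9.03e-05). Egr2 was lower there, at 24.2 to 32.0 CPM after irradiation against 47.1 to 55.6 CPM in irradiated CD11c+CD11b+ cells (log2 -0.92 ± 0.08, edgeR adjusted p = 0.000178). Egr1 was lower as well, with log2 -0.45 ± 0.15, edgeR adjusted p = 0.0439. Egr1 lost the call in 4 of 5 omissions of a treatment, each time 1 of the irradiated pairs, and Fosb lost it in 3, without the radiotherapy-alone, the anti-SIRPa or the both-antibodies pair. Over all alternatives the edgeR or DESeq2 adjusted p reached 0.759 for Egr1 and 0.192 for Fosb.

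Atf3 and Dusp1 showed the widest gaps after Egr3. Atf3 in CD11c+CD11b- cells had 164 CPM after radiotherapy alone, 115 with anti-SIRPa, 147 with anti-PD-1 and 154 with both, against 159 CPM in the untreated library. Its values in CD11c+CD11b+ cells were 424, 459, 375 and 445 CPM in the irradiated libraries, against 516 CPM in the untreated one, and no library of one population reached the other (log2 -1.60 ± 0.11, edgeR adjusted p = 4.43e-05). Dusp1 had 503, 341, 472 and 451 CPM in the irradiated libraries, against 465 CPM in the untreated one in CD11c+CD11b- cells. The CD11c+CD11b+ libraries had 1483, 1328, 1339 and 1551 CPM after irradiation, against 1127 CPM untreated, again apart from the CD11c+CD11b- libraries (log2 -1.63 ± 0.11, edgeR adjusted p = 3.85e-05). Ier2 was the member that did not pass, with log2 -0.13 ± 0.08, edgeR adjusted p = 0.206; it passed when the untreated pair was left out, and then all 10 did, where 47.5% of all genes passed. Beside these differences, 12 of 12 macrophage markers had lower levels in CD11c+CD11b- cells (median log2 -3.85), all 8 neutrophil markers tested were lower too (median log2 -3.97), 7 of 7 NK cell markers, 7 of 7 mast cell markers and 11 of 12 CD8 T cell markers were higher, and the part of this difference in cell content in the members' differences was not tested.

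CD11c+CD11b- cells set against CD11c-CD11b+ cells gave a like picture, with 8 members past the threshold, 7 lower and Egr3 higher, where 43.3% of all genes passed. Dusp1 had 1422, 1367, 1852 and 1656 CPM in the irradiated libraries, against 917 CPM in the untreated one in CD11c-CD11b+ cells, all above the CD11c+CD11b- libraries (log2 -1.67 ± 0.16, edgeR adjusted p = 0.000287). Atf3 had 480.4, 458, 476 and 499 CPM in the irradiated libraries, against 377 CPM in the untreated one there, and was lower in CD11c+CD11b- cells by a similar amount (log2 -1.63 ± 0.11, edgeR adjusted p = 6.23e-05). For Egr3 the CD11c-CD11b+ libraries held 8.90, 9.14, 12.7 and 14.4 CPM in the irradiated libraries, against 5.94 CPM in the untreated one, all below the CD11c+CD11b- libraries (log2 1.87 ± 0.13, edgeR adjusted p = 7.02e-05). Fos (-1.16), Egr1 (-1.28), Jun (-0.76), Junb (-0.58) and Egr2 (-0.55) also passed as lower on the log2 scale, with edgeR adjusted p between 0.00136 and 0.0317. Fosb (log2 -0.05 ± 0.10, edgeR adjusted p = 0.698) and Ier2 (log2 -0.14 ± 0.12, edgeR adjusted p = 0.384) did not pass. Leaving out the pair of libraries given both antibodies cut the count to 5, with the calls of Junb, Egr1 and Egr2 lost; Egr2 lost its call in the omission of any irradiated pair, and Junb without the anti-SIRPa pair too. Beside these calls, CD11c+CD11b- cells were lower for 9 of 9 neutrophil markers (median log2 -5.94) and for all 12 of the macrophage list (-3.02), while 7 of 7 NK cell markers (4.80) and 5 of 5 mature dendritic cell markers (5.90) were higher. The part of these cells in the members' differences was not tested.

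CD11c+CD11b+ cells set against CD11c-CD11b+ cells, which share CD11b, differed at 1 member, Egr1, where 21.4% of all 20826 genes passed. Egr1 in CD11c+CD11b+ cells had 328 CPM after radiotherapy alone, 474 with anti-SIRPa, 338 with anti-PD-1 and 345 with both, against 846 CPM in the untreated library. In CD11c-CD11b+ cells Egr1 had 558, 944, 799 and 687 CPM in the irradiated libraries, against 928 CPM in the untreated one. The irradiated CD11c+CD11b+ libraries, at 328 to 474 CPM, lay below all 5 CD11c-CD11b+ libraries, while the 2 untreated libraries were close to each other (log2 -0.85 ± 0.15, edgeR adjusted p = 0.00551). Without the treatment term Egr1 no longer passed (log2 -0.76, edgeR adjusted p = 0.140); over the other alternatives its adjusted p ran from 2.15e-10 to 0.0236. The other 9 members had log2 differences from -0.42 (Egr3) to 0.34 (Egr2), and none passed. By DESeq2 4 members passed, where 21.9% of all genes did, and 3 passed in edgeR when either the untreated pair (23.2% of all genes) or the anti-PD-1 pair (20.5%) was left out. Of the markers, 11 of 12 for macrophages (median log2 0.68), 5 of 6 for cDC2, the type 2 conventional dendritic cells (2.22), and 4 of 5 for mature dendritic cells (4.40) were higher in CD11c+CD11b+ cells. Lower were 8 of 9 neutrophil markers (-2.98), 12 of 12 CD8 T cell markers (-2.02) and 7 of 8 fibroblast markers (-0.68), and the part of these cells was not tested.

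**Figure D2:**
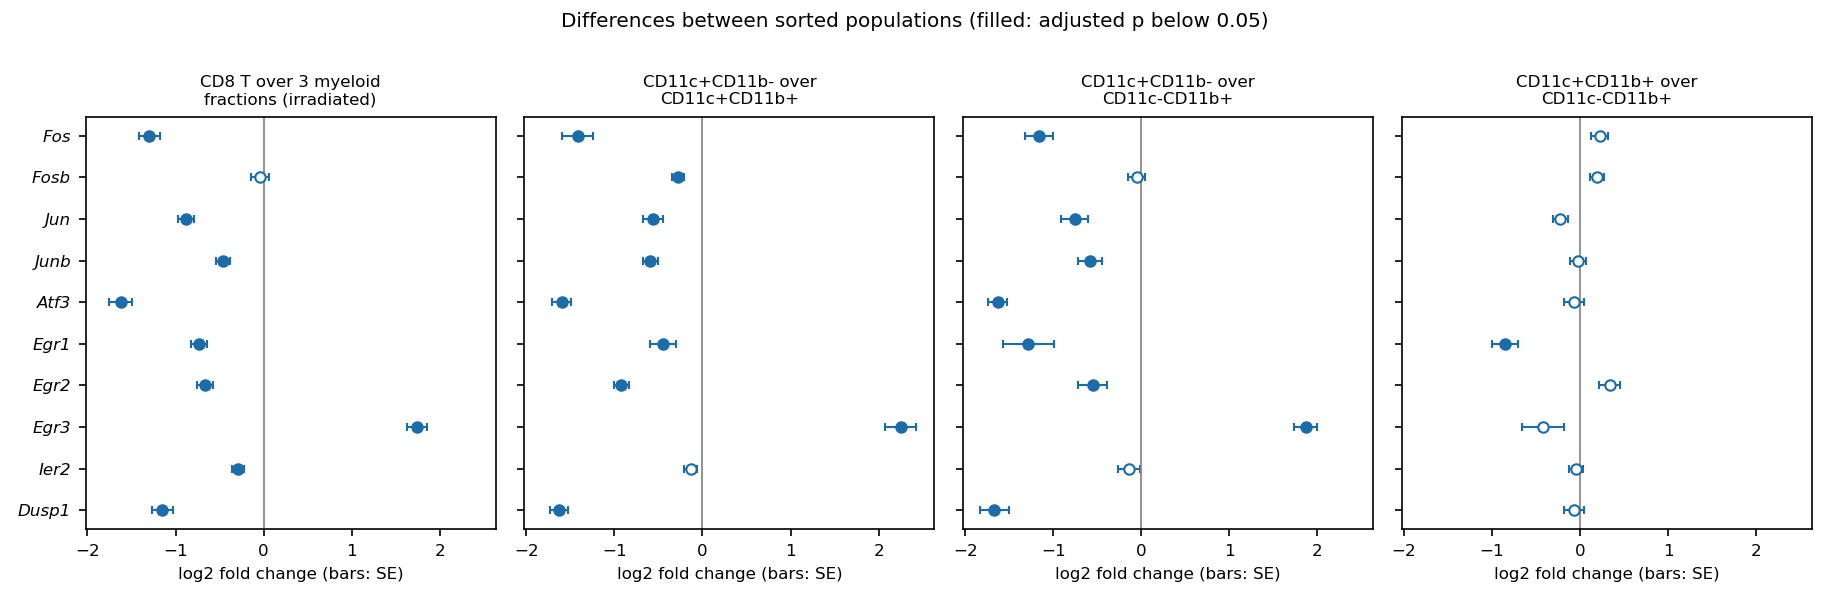
Log2 fold change with its approximate SE for each of the 10 genes in 4 comparisons of populations, with filled points where the edgeR adjusted p was below 0.05. Egr3 lies to the right of 0 in the 3 panels that set CD8 T or CD11c+CD11b- cells over other cells, Atf3 and Dusp1 lie far to the left there, and in the panel of the 2 CD11b+ populations Egr1 alone is filled.

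CD8 T cells were set against the average over the 3 myeloid populations in the 16 irradiated libraries, which leaves out the library that goes against its label. Here 9 of 10 members passed, 8 lower and Egr3 higher in CD8 T cells, where 50.3% of the 21243 genes tested passed. Egr3 averaged 47.4 ± 5.26 CPM in irradiated CD8 T cells, against 37.7 ± 6.58 CPM in CD11c+CD11b-, 7.17 ± 2.48 CPM in CD11c+CD11b+ and 11.3 ± 2.71 CPM in CD11c-CD11b+ cells (SD, n = 4 libraries each; log2 1.74 ± 0.11, edgeR adjusted p = 3.36e-08). The CD8 T and CD11c+CD11b- ranges of Egr3 overlap, and both are apart from the 2 CD11b+ populations. Egr2, its close relative, ran the other way, at 25.3 ± 2.54 CPM in CD8 T cells, against 27.1 ± 3.39 CPM in CD11c+CD11b-, 53.1 ± 4.05 CPM in CD11c+CD11b+ and 45.6 ± 4.31 CPM in CD11c-CD11b+ cells (log2 -0.67 ± 0.09, edgeR adjusted p = 2.70e-05).

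Fos averaged 675 ± 129 CPM in irradiated CD8 T cells, against 839 ± 108 CPM in CD11c+CD11b-, 2531 ± 148 CPM in CD11c+CD11b+ and 2124 ± 206 CPM in CD11c-CD11b+ cells (log2 -1.30 ± 0.12, edgeR adjusted p = 1.15e-06). Atf3 showed the same layout, at 102 ± 24.6 CPM in CD8 T cells, against 145 ± 21.1, 426 ± 36.5 and 478 ± 17.1 CPM in CD11c+CD11b-, in CD11c+CD11b+ and in CD11c-CD11b+ cells (log2 -1.62 ± 0.13, edgeR adjusted p = 2.88e-07). In both genes the CD8 T range overlaps that of CD11c+CD11b- cells and is apart from the CD11b+ populations. Dusp1 was also lower (log2 -1.15 ± 0.12, edgeR adjusted p = 3.39e-06), as were Jun (-0.88), Egr1 (-0.73), Junb (-0.46) and Ier2 (-0.29 on the log2 scale, edgeR adjusted p = 0.00364). Dusp1, Egr1 and Junb in CD8 T cells were level with CD11c+CD11b- cells within their spread, at 449.9 ± 83.2 against 442 ± 70.7 CPM, 245 ± 48.4 against 242 ± 44.4 CPM and 598 ± 75.8 against 597 ± 47.5 CPM, so here too the gap lay towards the CD11b+ populations. Fosb did not pass: it averaged 885 ± 177 CPM in CD8 T cells, against 829 ± 101, 1029 ± 80.3 and 872 ± 73.9 CPM in the 3 myeloid populations (log2 -0.04 ± 0.10, edgeR adjusted p = 0.766). With all 20 libraries in the fit 7 members passed, and Junb and Dusp1 lost the call.

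Irradiated libraries were next set against the untreated library of the same population, which asks how cells of irradiated tumours differed 5 days after the dose. No member passed in any of the 3 myeloid populations, with 4 irradiated libraries against 1 in each. The untreated library is assumed to vary as the irradiated ones do. In CD11c+CD11b- cells 0.019% of the genes tested passed in edgeR; 7 of the 10 members had an unadjusted p under 0.05, where 22.5% of all genes did, and 5 passed in DESeq2, where 12.5% of all genes did. For CD11c+CD11b+ cells 0.343% of genes passed in edgeR; 3 members were under 0.05 unadjusted against 15.8% of all genes, and 2 passed in DESeq2 against 5.43%. In CD11c-CD11b+ cells 0.0047% of genes passed in edgeR; 2 members were under 0.05 unadjusted, near the 19.0% of all genes, and 1 passed in DESeq2 against 5.7%.

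Egr1 showed the widest gap in CD11c+CD11b- cells, where it had 246 CPM after radiotherapy alone, 303 with anti-SIRPa, 212 with anti-PD-1 and 207 with both, against 1017 CPM in the untreated library. All 4 irradiated libraries lay far below the untreated one, and the groups do not overlap (log2 -2.15 ± 0.20, edgeR adjusted p = 0.0716). In CD11c+CD11b+ cells the irradiated Egr1 values, 328 to 474 CPM, were also all below the untreated 846 CPM (log2 -1.20 ± 0.20, edgeR adjusted p = 0.0622). In CD11c-CD11b+ cells the groups overlapped, since the library given anti-SIRPa, at 944 CPM, was above the untreated 928 CPM (log2 -0.34 ± 0.28, edgeR adjusted p = 0.520).

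Jun and Ier2 had the same layout at a smaller size. Jun in CD11c+CD11b- cells had 731, 809.6, 663 and 599.5 CPM in the irradiated libraries, against 1464 CPM in the untreated one (log2 -1.14 ± 0.17, edgeR adjusted p = 0.0822). CD11c+CD11b+ cells had 1002 to 1279 CPM of Jun after irradiation against 1535 CPM untreated (log2 -0.47 ± 0.15, edgeR adjusted p = 0.208). Ier2 had 152, 158, 156 and 152 CPM in the irradiated libraries, against 293 CPM in the untreated one in CD11c+CD11b- cells (log2 -0.999 ± 0.11, edgeR adjusted p = 0.0733). In CD11c+CD11b+ cells Ier2 had 165 to 187 CPM in the irradiated libraries against 261 CPM in the untreated one (log2 -0.57 ± 0.11, edgeR adjusted p = 0.0832). In CD11c-CD11b+ cells the irradiated libraries were still below the untreated one for both genes, at 1170.4 to 1475 against 1537 CPM for Jun and 164 to 212 against 222 CPM for Ier2. Fosb was the third member to lie below the untreated level in all 3 myeloid populations, with log2 -0.57 in CD11c+CD11b-, -0.26 in CD11c+CD11b+ and -0.41 in CD11c-CD11b+ cells and edgeR adjusted p of 0.129, 0.442 and 0.265.

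Fos and Dusp1 did not share a direction across populations. Irradiated CD11c+CD11b- cells were below the untreated library for Fos at 732 to 942 against 1334 CPM, whereas irradiated CD11c+CD11b+ cells were above it at 2332 to 2684 against 2053 CPM and irradiated CD11c-CD11b+ cells were above it at 1891 to 2373 against 1791 CPM. Dusp1 had 1367 to 1852 CPM in irradiated CD11c-CD11b+ cells against 917 CPM untreated (log2 0.76 ± 0.24, edgeR adjusted p = 0.206), and 1328 to 1551 CPM in irradiated CD11c+CD11b+ cells against 1127 CPM untreated (log2 0.33 ± 0.14, edgeR adjusted p = 0.336). In CD11c+CD11b- cells the irradiated Dusp1 values, 341 to 503 CPM, straddled the untreated 465 CPM. None of these differences passed.

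Counted over members, all 4 irradiated libraries were above the untreated one for 0 genes and below it for 7 in CD11c+CD11b- cells. The same counts were 2 above and 6 below in CD11c+CD11b+ cells, and 6 above and 3 below in CD11c-CD11b+ cells. Over all genes tested the share above was 34.9% in CD11c+CD11b-, 28.6% in CD11c+CD11b+ and 30.6% in CD11c-CD11b+ cells, and the share below was 26.3%, 26.9% and 29.2% in the same order, so the 3 below in CD11c-CD11b+ cells are near the share of all genes. Junb shows the split: it had 537 to 636 CPM against 776 CPM untreated in CD11c+CD11b- cells and 886 to 1049 CPM against 771 CPM untreated in CD11c-CD11b+ cells. Egr2 did likewise, at 24.2 to 32.0 against 42.2 CPM and 41.4 to 51.1 against 35.3 CPM. Atf3 had 375 to 459 CPM in irradiated CD11c+CD11b+ cells against 516 CPM untreated, and 458 to 499 CPM in irradiated CD11c-CD11b+ cells against 377 CPM untreated. The median log2 change was -0.65 over the members in CD11c+CD11b- cells, -0.31 in CD11c+CD11b+ cells and 0.27 in CD11c-CD11b+ cells, against 0.02 to 0.04 over all genes tested.

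**Figure D3:**
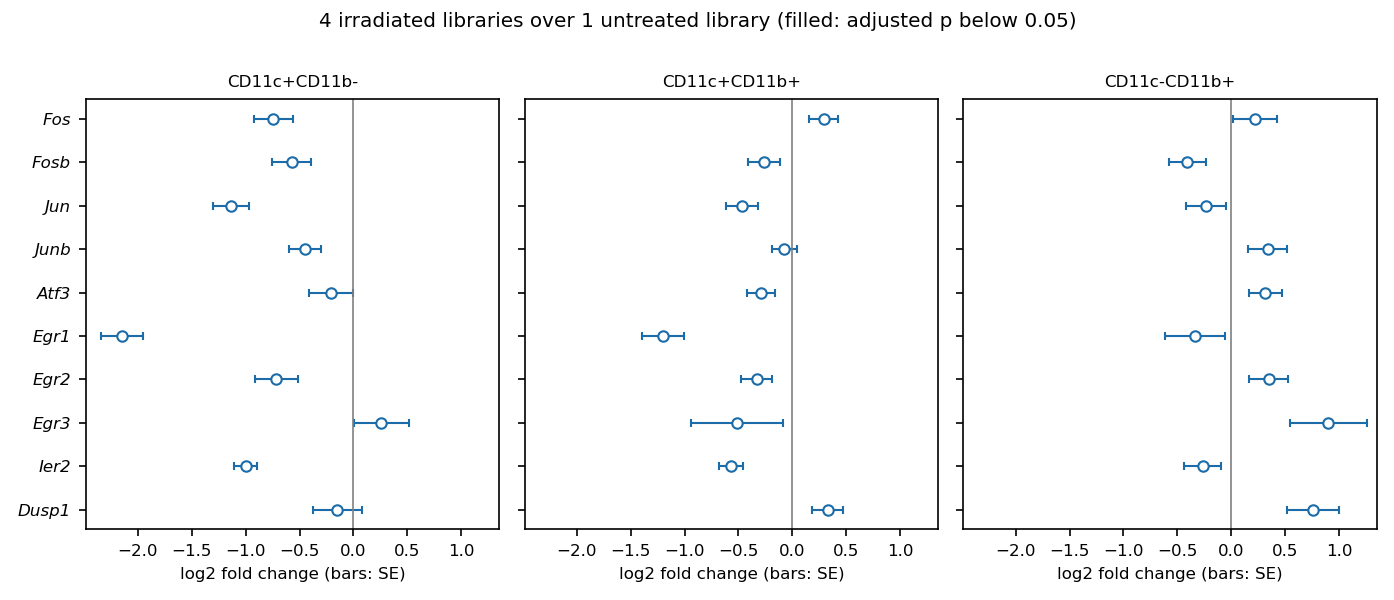
Log2 fold change of the 4 irradiated libraries over the untreated one, with its approximate SE, for the 10 genes in 3 myeloid populations; no point is filled because no edgeR adjusted p was below 0.05. Egr1, Jun, Ier2 and Fosb lie left of 0 in all 3 panels, and Dusp1 lies right of 0 in the 2 CD11b+ populations.

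Whether the irradiation difference varies between the 3 myeloid populations was tested directly as an interaction over 15 libraries. Egr1 passed (edgeR adjusted p = 0.0313) and no other member did, where 0.63% of all 23009 genes passed. Its log2 differences were -2.15 in CD11c+CD11b-, -1.20 in CD11c+CD11b+ and -0.34 in CD11c-CD11b+ cells. Egr2 (edgeR adjusted p = 0.0578), Egr3 (0.0814) and Fos (0.0985) followed, and 8 members had an unadjusted p under 0.05, where 15.1% of all genes did. No member passed without the libraries given both antibodies or with no filter on low counts, 2 did without the anti-PD-1 libraries (0.431% of all genes), and 8 passed in DESeq2, where 5.35% of all genes did. Leaving out the anti-SIRPa libraries instead brought 4 members past the threshold for irradiation in CD11c+CD11b- cells, 3 in CD11c+CD11b+ cells and 1 in CD11c-CD11b+ cells, where 14.7%, 7.66% and 16.1% of all genes passed; of 4 omissions in each population it was the one that brought any member past it. Egr1 then had log2 -2.26 (edgeR adjusted p = 0.00261) in CD11c+CD11b- cells and -1.33 (edgeR adjusted p = 0.00761) in CD11c+CD11b+ cells, where over all alternatives its adjusted p ran from 3.60e-14 to 0.236 and from 4.20e-05 to 0.255.

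Markers of another cell type moved with the untreated libraries. Fibroblast markers (8 genes, none at 0) summed to 456 to 1689 CPM in irradiated CD11c+CD11b- cells against 6630 CPM untreated, 804 to 1838 CPM in irradiated CD11c+CD11b+ cells against 4924 CPM untreated, and 1364 to 2975 CPM in irradiated CD11c-CD11b+ cells against 6325 CPM untreated. Within each population the anti-SIRPa library had the highest of the 4 irradiated sums, and it also had the highest irradiated Egr1 level in all 4 populations. The other irradiated libraries did not all follow. In CD8 T, CD11c+CD11b+ and CD11c-CD11b+ cells radiotherapy alone gave fibroblast sums of 841, 1190 and 1941 CPM, above both anti-PD-1 libraries. Its Egr1 was the lowest there, at 207, 328 and 558 CPM (208 CPM with anti-PD-1 in CD8 T cells). In CD11c+CD11b- cells radiotherapy alone was above both anti-PD-1 libraries for fibroblast markers and for Egr1. Mitochondrial genes took 0.747 to 1.32% of counts in irradiated libraries and 1.36 to 1.90% in untreated ones. Heat shock genes summed to 5223 to 6783 CPM in irradiated CD11c+CD11b- cells against 6055 CPM untreated, 4490 to 6486 CPM in CD11c+CD11b+ cells against 5977 CPM untreated and 5038 to 6720 CPM in CD11c-CD11b+ cells against 5898 CPM untreated, so these groups overlapped. Markers of some dendritic cell types had higher levels in irradiated than in untreated CD11c+CD11b- cells, though none passed in edgeR. Those of cDC2 overlapped, with sums of 200 to 426 CPM in irradiated CD11c+CD11b- cells against 211 CPM untreated. Markers of cDC1, the type 1 conventional dendritic cells, summed to 665 to 2074 CPM in irradiated CD11c+CD11b- cells against 214 CPM untreated, with 8 of 8 under 0.05 unadjusted (median log2 2.76). Mature dendritic cell markers summed to 815 to 1695 CPM against 444 CPM untreated (4 of 5, 2.63) and plasmacytoid dendritic cell markers to 406 to 1002 CPM against 401 CPM untreated (6 of 7, 3.58). In CD11c+CD11b+ cells macrophage markers summed to 12250 to 15060 CPM in irradiated libraries against 7817 CPM untreated, with 12 of 12 under 0.05 unadjusted and 3 past the edgeR threshold. The part of these cells, of fibroblast RNA and of the mitochondrial share in the members' differences was not tested.

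In CD8 T cells the same contrast is a description only. The library labelled untreated CD8 T had 2627 CPM of Fos, 629.6 CPM of Atf3, 1569.9 CPM of Dusp1 and 7.06 CPM of Egr3. Irradiated CD8 T libraries had 497 to 779.7 CPM of Fos, 70.2 to 121 CPM of Atf3, 334 to 531 CPM of Dusp1 and 40.1 to 52.1 CPM of Egr3. Its high Fos, Atf3 and Dusp1 and low Egr3 are on the side where the CD11b+ populations lie, as are its macrophage markers.

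Anti-PD-1 was tested within the irradiated libraries of each population, 2 with and 2 without it, with anti-SIRPa as a term and 1 residual degree of freedom. In CD8 T cells 4 members passed, all lower with anti-PD-1, where 6.97% of the 18784 genes tested passed. Fos had 497 CPM with anti-PD-1 and 660.1 CPM with both antibodies, against 779.7 CPM after radiotherapy alone and 762 CPM with anti-SIRPa (log2 -0.42 ± 0.10, edgeR adjusted p = 0.0476). Atf3 had 70.2 and 94.0 CPM with anti-PD-1, against 121 and 121 CPM without it (log2 -0.57 ± 0.10, edgeR adjusted p = 0.0184). For both genes the libraries with anti-PD-1 were below those without.

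Jun had 409 and 573 CPM in CD8 T cells with anti-PD-1, against 556 and 683 CPM without it (log2 -0.34 ± 0.08, edgeR adjusted p = 0.0380). Fosb had 669 and 906 CPM with anti-PD-1, against 863 and 1101 CPM without it (log2 -0.32 ± 0.07, edgeR adjusted p = 0.0423). In these 2 genes the values overlap across anti-PD-1, but with and without anti-SIRPa the library given anti-PD-1 was the lower of its pair. The other 6 members did not pass, with log2 differences from -0.29 to 0.15. Over the alternatives the adjusted p ran from 0.0202 to 0.407 for Fos, 0.0467 to 0.407 for Fosb, 0.0411 to 0.407 for Jun and 0.00764 to 0.407 for Atf3. DESeq2 also called all 4, where 3.88% of all genes passed, RLE scaling left Atf3, and no member passed without the filter on low counts, without the anti-SIRPa term or with all populations in 1 fit.

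The make-up of the CD8 T libraries also differed with anti-PD-1. CD8 T cell markers summed to 6690 CPM with anti-PD-1 and 6297 CPM with both antibodies, against 4580 CPM after radiotherapy alone and 4228 CPM with anti-SIRPa, and 12 of 12 rose. Macrophage markers summed to 1270 and 2006 CPM with anti-PD-1, against 2845 and 2613 CPM without it, and 9 of 12 fell. Fibroblast markers summed to 447 and 591 CPM with anti-PD-1, against 841 and 1043 CPM without it, and 4 of 8 fell. The part of these cells in the lower Fos, Fosb, Jun and Atf3 was not tested. Of the heat shock genes, Hspa1b (-1.13) and Hspa1a (-1.07 on the log2 scale) fell. The whole heat shock list overlapped, with sums of 6511 and 6605 CPM with anti-PD-1, against 6640 and 6164 CPM without it.

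**Figure D4:**
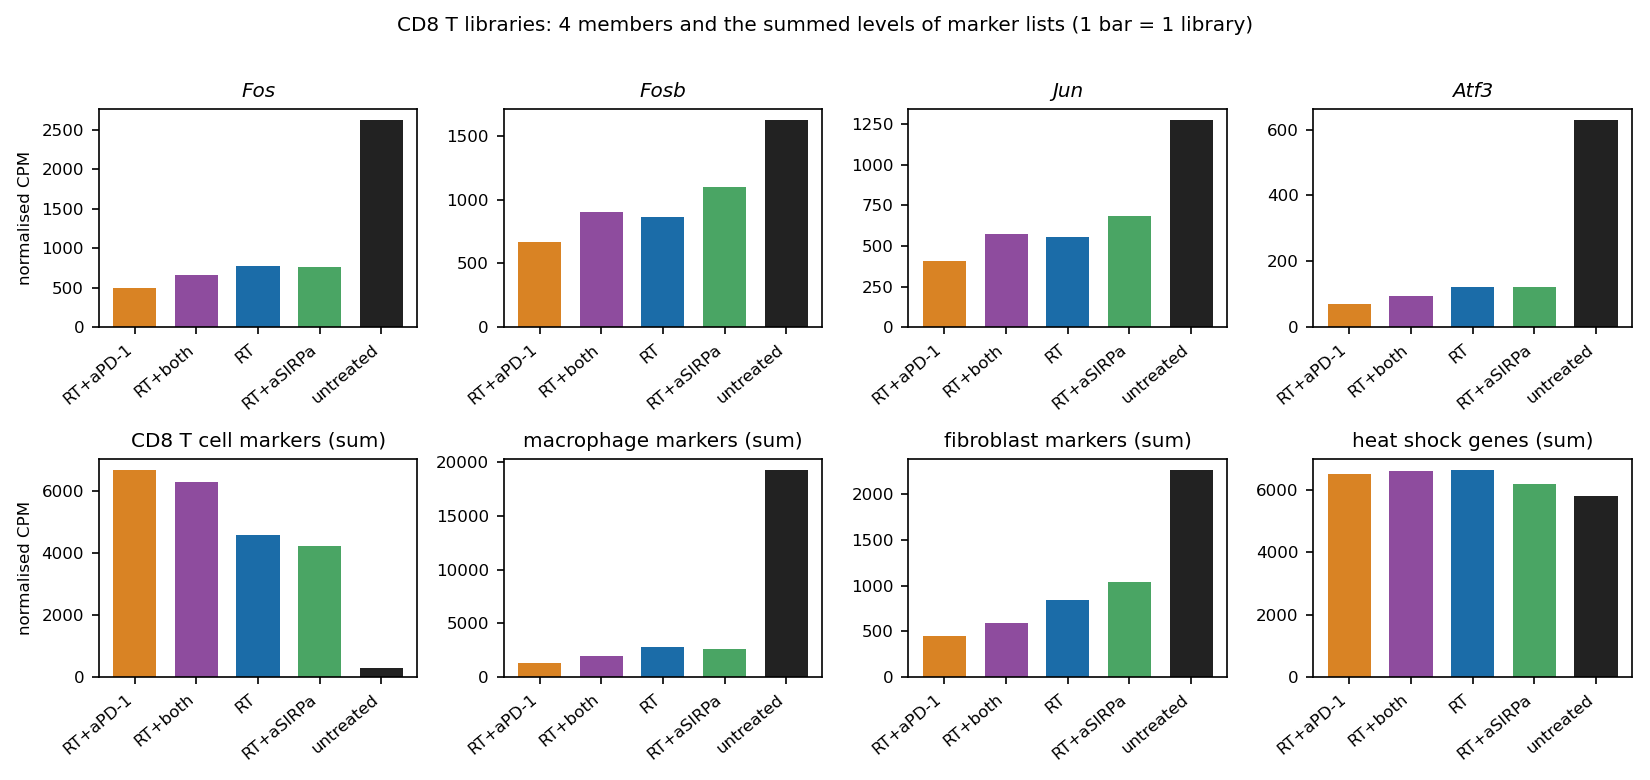
CPM of Fos, Fosb, Jun and Atf3, and summed CPM of CD8 T cell, macrophage and fibroblast markers and of heat shock genes, as bars for the 5 CD8 T libraries in the order radiotherapy with anti-PD-1, with both antibodies, alone, with anti-SIRPa, and untreated. The library labelled untreated CD8 T has the lowest CD8 T marker sum, 293 CPM, and the highest macrophage sum, 19290 CPM, and among irradiated libraries macrophage sums are lower with anti-PD-1.

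In the myeloid populations no member passed under anti-PD-1. Among CD11c+CD11b+ cells, where 6.66% of all genes passed, Egr3 came closest with 10.3 and 8.02 CPM with anti-PD-1, against 5.58 and 4.80 CPM without it (log2 0.84 ± 0.20, edgeR adjusted p = 0.0503). It was the only member with an unadjusted p under 0.05, where 25.2% of all genes were, and no member passed in DESeq2. In CD11c+CD11b- cells, where 4.1% of all genes passed, 4 members had an unadjusted p under 0.05, where 24.9% of all genes did, and none passed in DESeq2. Egr3 had 44.2 and 41.3 CPM with anti-PD-1, against 36.0 and 29.3 CPM without it (log2 0.44 ± 0.11, edgeR adjusted p = 0.0792), and Fosb was at log2 0.34 ± 0.07, edgeR adjusted p = 0.0624. In CD11c-CD11b+ cells 0.0% of genes passed in edgeR, and Egr3 was the 1 member with an unadjusted p under 0.05, where 15.1% of all genes were, at 12.7 and 14.4 CPM with anti-PD-1, against 8.90 and 9.14 CPM without it (log2 0.61 ± 0.17, edgeR adjusted p = 0.209; no member in DESeq2). Egr3 was thus above in both libraries with anti-PD-1 in each myeloid population, and it passed in none. With all populations in 1 fit it passed in CD11c+CD11b+ (edgeR adjusted p = 0.0174) and CD11c-CD11b+ cells (0.0325). NK cell markers summed to 122 and 122 CPM with anti-PD-1 in CD11c+CD11b+ cells, against 76.3 and 65.7 CPM without it. In CD11c-CD11b+ cells the sums were 313.6 and 229.5 CPM against 115 and 71.3 CPM. They overlapped in CD11c+CD11b- cells, at 2647 and 2975 CPM against 2770 and 3618 CPM. The part of NK cells in the Egr3 differences was not tested. The test of whether the anti-PD-1 difference varies between the 3 populations called 0.0% of genes in edgeR, and no member had an unadjusted p under 0.05 (6.61% of all genes did) or passed in DESeq2.

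Anti-SIRPa was tested the same way, and no member passed in edgeR or DESeq2 in any population. In CD8 T cells all 10 members had positive log2 differences, from 0.13 to 0.43, and 5 had an unadjusted p under 0.05, where 9.77% of all genes did and 0.101% passed. Egr1 had 308 CPM with anti-SIRPa and 259 CPM with both antibodies, against 207 CPM after radiotherapy alone and 208 CPM with anti-PD-1, so the libraries with anti-SIRPa were above those without (log2 0.43 ± 0.09, edgeR adjusted p = 0.212). Fosb was at log2 0.38 ± 0.07, edgeR adjusted p = 0.168. In CD11c+CD11b+ cells 0.156% of all genes passed and no member had an unadjusted p under 0.05, where 11.4% of all genes did. In CD11c+CD11b- cells 0.00523% of genes passed and 2 members were under 0.05 unadjusted, where 12.3% of all genes were: Fos, with 732 and 759 CPM with anti-SIRPa, against 942 and 921 CPM without it (log2 -0.32 ± 0.07, edgeR adjusted p = 0.177), and Dusp1 (log2 -0.31 ± 0.12, edgeR adjusted p = 0.377). In CD11c-CD11b+ cells 0.0% of genes passed and no member was under 0.05 unadjusted, where 4.36% of all genes were. The interaction of anti-SIRPa with population called 0.0% of genes in edgeR, with no member under 0.05 unadjusted (3.72% of all genes) and none in DESeq2.

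Other immediate early genes, a list of 40 that holds none of the 10, were counted beside the members. Of all genes tested, 41.6% passed in CD11c+CD11b- against CD11c+CD11b+ cells, 43.3% in CD11c+CD11b- against CD11c-CD11b+ cells and 21.4% in CD11c+CD11b+ against CD11c-CD11b+ cells. In CD8 T against myeloid cells 50.3% passed. Under anti-PD-1 6.97%, 6.66% and 4.1% passed in CD8 T, CD11c+CD11b+ and CD11c+CD11b- cells. The shares for irradiation are given above with the members. In CD11c+CD11b- against CD11c+CD11b+ cells 8 were higher and 26 lower (median log2 -0.47), with Gem, a small GTPase, at 3.90 and Ier3 at -2.51, Ptgs2, the inducible cyclooxygenase, at -2.15 and Sgk1 at -1.93. In CD11c+CD11b- against CD11c-CD11b+ cells 8 were higher and 29 lower (median -0.74). CD8 T against myeloid cells gave 7 higher and 31 lower (median -0.70), with Gem at 1.80 and the nuclear receptor Nr4a2 at 1.64 among the higher and Ptgs2 at -1.63 and Bcl6 at -1.55 among the lower. In CD11c+CD11b+ against CD11c-CD11b+ cells 3 were higher, among them Arc at 1.73 and Nr4a3 at 1.38, and 7 lower, among them Gadd45a at -1.67. For irradiation 0 of the 40 passed in edgeR in any of the 3 myeloid populations, while 21, 15 and 15 had an unadjusted p under 0.05 and 17, 10 and 8 passed in DESeq2 in CD11c+CD11b-, in CD11c+CD11b+ and in CD11c-CD11b+ cells. Anti-PD-1 gave 2 higher and 4 lower in CD8 T cells, 2 and 3 in CD11c+CD11b+ cells and 1 and 3 in CD11c+CD11b- cells; Ccn1, a matrix protein that fibroblasts express, had the largest change in each, at -1.47, -1.25 and -1.60.

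Of 10 further AP-1 genes, 2 were higher and 5 lower in CD11c+CD11b- cells than in CD11c+CD11b+ cells, with the macrophage factor Maf (-3.02) among the lower. Of all genes, 41.6% passed in that comparison, 21.4% in CD11c+CD11b+ against CD11c-CD11b+ cells and 50.3% in CD8 T against myeloid cells. In CD11c+CD11b+ against CD11c-CD11b+ cells 4 were higher, among them Batf3 (1.40), a factor of cross-presenting dendritic cells, and 4 lower, among them Fosl1 (-0.83). In CD8 T cells 2 were higher and 8 lower than in myeloid cells, and Batf, a partner of Jun proteins in activated T cells, was at 1.40. Maf was higher in irradiated CD11c+CD11b+ libraries than in the single untreated one (1.03). In CD8 T cells, where 6.97% of all genes passed, Batf (0.62) and Jund (0.37) were higher and Fosl1 (-1.26) was lower with anti-PD-1. Fosl1 was also lower with anti-PD-1 in CD11c+CD11b+ (-0.84) and CD11c+CD11b- cells (-1.25), where 6.66% and 4.1% of all genes passed. The part of cell content in these differences was not tested.

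MAPK phosphatases and ERK feedback inhibitors other than Dusp1 (15 genes) were mixed in direction. Beside this list and those that follow, 41.6% of all genes passed in CD11c+CD11b- against CD11c+CD11b+ cells and 50.3% in CD8 T against myeloid cells. In CD11c+CD11b- against CD11c+CD11b+ cells 7 were higher and 5 lower, with Spry2 (3.21) and Dusp2 (2.31) higher and Dusp6 (-1.73), the ERK phosphatase, lower. CD8 T cells had 5 higher and 8 lower than myeloid cells, with Dusp4 (2.74), Dusp14 (2.10) and Spry1 (2.02) higher. Among 22 tested regulators upstream of the group, such as ERK, serum response factor and CREB genes, 7 were higher and 9 lower in CD11c+CD11b- cells than in CD11c+CD11b+ cells, and 6 higher and 8 lower in CD8 T than in myeloid cells. Of the 13 ATF4 and ER stress genes tested, 0 were higher and 5 lower in CD11c+CD11b- cells than in CD11c+CD11b+ cells (Cebpb -3.11), and 0 higher and 9 lower in CD8 T than in myeloid cells (Cebpb -1.65). Of the 12 p53 targets, 3 were higher and 6 lower in the first of these and 4 higher and 8 lower in the second, with Cdkn1a at -1.29 in CD8 T cells. Heat shock genes gave 5 higher and 2 lower of 12 in CD11c+CD11b- against CD11c+CD11b+ cells, and the 2 were Hspa1a (-1.52) and Hspa1b (-1.09). The EGR corepressor Nab2 was lower in CD11c+CD11b- cells than in CD11c+CD11b+ cells (-0.31) and higher in CD8 T than in myeloid cells (0.40).

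How the members moved with each other was described over the 15 myeloid libraries after centring each gene on its mean in a population, so points share depth and composition of their libraries. Egr1 and Jun followed each other with Pearson r = 0.983, Egr1 and Ier2 with r = 0.972 and Jun and Ier2 with r = 0.950. Over the 12 irradiated libraries alone, centred the same way, these were 0.936, 0.784 and 0.727, so the untreated libraries carry a part of the values. Fos and Dusp1 had r = 0.628 over the 15 libraries and 0.847 over the 12 irradiated ones. Dusp1 with Egr1 was at -0.255 over the 15 libraries and -0.379 over the 12. Against the mean of the other 9 members, Egr2 (r = 0.825) and Junb (0.823) were highest over the 15 libraries, and Dusp1 (0.143) and Egr3 (0.0451) were lowest.

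Among the 10 genes most like the mean of the members over those 15 libraries, out of 9313 genes with a mean of at least 10 CPM, were Rxra (r = 0.907), Atg9a (0.887), Zfp608 (0.867), Jmy (0.866), Cebpd (0.852), Id1 (0.842), Nrg1 (0.837), Nfkbia (0.822) and Fgd6 (0.816). Over the 12 irradiated libraries Nfkbia (0.715), Zfp608 (0.660) and Atg9a (0.627) were the highest of those named, while Rxra (0.0645) and Id1 (-0.125) were near 0 or below it.

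The deposited rows are transcripts, which allows the members to be split, although the division of reads between overlapping transcripts is an estimate. Fos lies at chr12:85473890-85477273 (GRCm38, plus strand) and 99.0% of its counts were on Fos-201, with 4 exons. Jun (chr4:95049034-95052222, minus strand) and Ier2 (chr8:84661331-84662852, minus strand) are single-exon genes with 1 transcript each. Fosb lies at chr7:19302696-19310051 on the minus strand, and 34.5% of its counts were on Fosb-204, a transcript of 1 exon annotated as a retained intron. That share was 40.3 ± 1.16% in irradiated CD8 T cells against 26.9% in the library labelled untreated CD8 T, 38.1 ± 2.82% in irradiated CD11c+CD11b- cells against 30.8% untreated, 34.9 ± 0.876% in irradiated CD11c+CD11b+ cells against 29.9% untreated and 34.2 ± 1.04% in irradiated CD11c-CD11b+ cells against 29.0% untreated (SD, n = 4). The untreated library was below all 4 irradiated ones in each population, and no test was made.

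Fosb is also known for a spliced form that loses a 140-base intron within its last exon and encodes the shorter DeltaFosB protein, which lacks the end of FosB that activates transcription. That intron is at chr7:19305007-19305146, and it is removed in Fosb-206 and Fosb-207. Fosb-207 also lacks an exon of Fosb-206, since its intron at chr7:19305303-19307119 spans the Fosb-206 introns at 19305303-19306558 and 19306667-19307119. It held 29.7% of all Fosb counts, against 7.95% on Fosb-206. The pooled share below is therefore one of the removed intron, and not of the known DeltaFosB form alone. Together Fosb-206 and Fosb-207 made up 47.4 to 69.2% of coding Fosb counts in irradiated CD8 T libraries against 73.0% in the library labelled untreated. They made up 26.3 to 61.1% in irradiated CD11c+CD11b- libraries against 69.7% untreated, 48.2 to 67.0% in irradiated CD11c+CD11b+ libraries against 57.3% untreated and 29.9 to 64.9% in irradiated CD11c-CD11b+ libraries against 66.8% untreated. The ranges among irradiated libraries are wide, and CD11c+CD11b+ cells overlap their untreated library.

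Dusp1 (chr17:26505590-26562128, minus strand) had 63.1% of its counts on Dusp1-203, annotated as a retained intron. Its retained-intron share was 72.3 to 82.4% in 16 libraries and 20.4% in CD11c+CD11b+ cells with anti-SIRPa, 25.6% in untreated CD11c+CD11b+ cells, 34.2% in CD11c-CD11b+ cells with anti-SIRPa and 30.0% in CD11c-CD11b+ cells with both antibodies. The 4 low libraries fall on no single treatment. Egr3 (chr14:70077203-70082614, plus strand) had 43.5% of its counts on the retained-intron transcript Egr3-202, with 38.2 to 47.5% in irradiated CD8 T libraries against 2.16% in the library labelled untreated. Egr1 (chr18:34859823-34864984, plus strand), Junb (chr8:84974484-84978718, minus strand) and Atf3 (chr1:191170296-191218039, minus strand) had at least 99.6% of their counts on 1 coding transcript, and Egr2 (chr10:67535475-67542188, plus strand) had 85.3%. Jun overlaps its antisense transcript Junos over 689 bases, Junb overlaps Prdx2 over 351 bases and Dusp1 overlaps Ergic1 over 640 bases, each on the opposite strand, and whether the libraries keep strand is not given in the sources used here, so these 3 carry an uncertainty in read assignment.

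**Figure D5:**
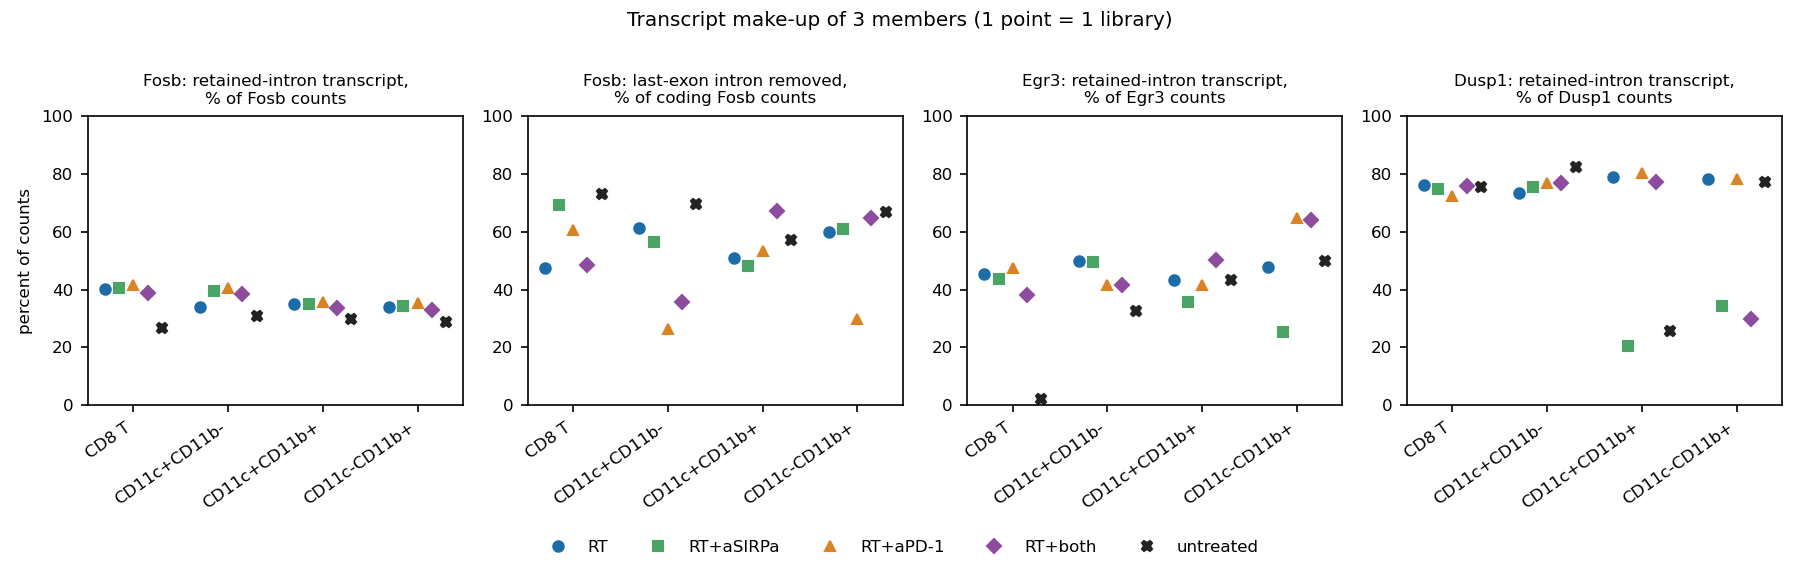
Percent of counts per library in 4 panels: the Fosb retained-intron transcript, coding Fosb with the last-exon intron removed (as percent of coding Fosb counts), the Egr3 retained-intron transcript and the Dusp1 retained-intron transcripts, with 5 markers per population for the 5 treatments. The untreated marker is the lowest of its population in the first panel, and 4 libraries stand at 20.4 to 34.2% in the Dusp1 panel.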

How the data were processed

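The deposited table held whole-number estimated counts per transcript for 20 libraries. Per the submitters' processing notes, the authors used FastQC 0.11.8, HISAT2, StringTie and edgeR 3.34.0 with the GRCm38 genome; for HISAT2 and StringTie no version is given in the sources used here, nor is strandedness. Of 142699 transcripts, 141469 matched GENCODE M21 and were summed to 55260 genes; the remaining 1230 made up 0.399% of a library or less.

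CPM were scaled by TMM (edgeR 4.0.16, R 4.3.3). Each of 18 comparisons was fitted across all genes with edgeR's quasi-likelihood F-test after filterByExpr (minimum count 10, minimum total 15), with Benjamini-Hochberg adjustment over every gene tested in a comparison and a threshold of 0.05. Standard errors are approximate: the size of the log2 fold change divided by the square root of F. A group is 1 library, so p-values rest on the spread between libraries of different treatments, and intervals from counting error were not used as replicate error. Log2 CPM for correlations used a prior count of 2. Tables were handled with Python 3.11.15, pandas 2.3.3, numpy 2.4.6 and scipy 1.17.1, and plots with matplotlib 3.10.9.

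All 10 members are named. From each other list up to 4 passing genes with the largest absolute log2 fold change per comparison were named, and the 10 genes most correlated with the members' mean; some genes that this rule names are not reported here. Members and lists were chosen with earlier results of these data known. Alternatives were RLE scaling, no filter on low counts, DESeq2 1.42.0, other model terms, all populations in 1 fit and the omission of a treatment. Simulated data were made from the real means, with the same set spread for every gene, which was not estimated from these libraries. No treatment or antibody difference beyond the tested one was put in. The fits found 99 of 100 genes changed 2-fold for CD11c+CD11b- against CD11c+CD11b+ cells (16776 genes) and 64 of 100 for irradiation in CD11c+CD11b+ cells (16561 genes). They found 81 of 100 for the anti-PD-1 test of CD11c+CD11b+ cells (16527 genes), but 40 of 100 for the anti-PD-1 interaction with population (16805 genes). These rates need not hold for the real libraries.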

Additional observations from a re-analysis of the deposited data

Results flagged for a closer look

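The irradiation difference of Egr1 varied between the myeloid populations by a test of the difference itself, an interaction over 15 libraries (edgeR adjusted p = 0.0313). Irradiated libraries had 207 to 303 CPM of Egr1 against 1017 CPM untreated in CD11c+CD11b- cells, 328 to 474 CPM against 846 CPM untreated in CD11c+CD11b+ cells, and 558 to 944 CPM against 928 CPM untreated in CD11c-CD11b+ cells, so only in CD11c-CD11b+ cells did the groups overlap. The untreated value is a single library in each population. Fibroblast markers were lower in irradiated than in untreated libraries of all 3 populations, with sums of 456 to 1689 CPM against 6630 CPM, 804 to 1838 CPM against 4924 CPM, and 1364 to 2975 CPM against 6325 CPM in the same order of populations, and in CD11c+CD11b- cells markers of cDC1, the type 1 conventional dendritic cells, were higher, at 665 to 2074 CPM against 214 CPM, as were mature dendritic cell markers at 815 to 1695 CPM against 444 CPM. Markers of cDC2, the type 2 conventional dendritic cells, overlapped in CD11c+CD11b- cells, at 200 to 426 CPM irradiated against 211 CPM untreated. The part of these cells in the Egr1 difference was not tested. Without the libraries given both antibodies, and with no filter on low counts, no member passed the interaction test.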

How the results depend on the processing

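With 1 library a group, no comparison has replicates, and tests of an antibody have 1 residual degree of freedom, so leaving out a library there was not run. The labels give no replicate numbers; comparisons of populations matched libraries by treatment, and the fits with no treatment term give the unmatched values. Numbers of members past the threshold moved as follows. For CD11c+CD11b+ against CD11c-CD11b+ cells (1 member), DESeq2 gave 4, a fit with no treatment term 0, and omission of a treatment 1 to 3. CD11c+CD11b- against CD11c-CD11b+ cells (8) gave 5 to 9 over omissions. Irradiation in CD11c+CD11b- cells (0) gave 5 in DESeq2, 6 with antibody terms, 5 with all populations in 1 fit and 0 to 4 over omissions. In CD11c+CD11b+ cells (0) it gave 2 in DESeq2, 2 with antibody terms and 0 to 3 over omissions, and in CD11c-CD11b+ cells (0) 1 in DESeq2 and 0 to 1 over omissions. The irradiation interaction (1) gave 2 with RLE, 0 with no filter, 8 in DESeq2 and 0 to 2 over omissions. Anti-PD-1 in CD8 T cells (4) gave 1 with RLE, 0 with no filter, 0 without the anti-SIRPa term and 0 in 1 fit; in CD11c+CD11b+ and CD11c-CD11b+ cells (0) it gave 1 in 1 fit, which was Egr3. The cause was not tested in any of these. CD11c+CD11b- against CD11c+CD11b+ cells (9) kept 6 to 10 and CD8 T against myeloid cells (9) kept 7 to 9 under all alternatives run, and anti-SIRPa in 4 populations and both antibody interactions stayed at 0 under all alternatives run.

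Counts over all genes moved more: irradiation called 4, 72 and 1 genes in CD11c+CD11b-, in CD11c+CD11b+ and in CD11c-CD11b+ cells by edgeR, and 2640, 1139 and 1213 in DESeq2, 2661, 1786 and 2 with antibody terms, 1952, 95 and 407 in 1 fit, and 3059, 1584 and 3393 without the anti-SIRPa library. Its interaction called 145 genes, against 32 with no filter, 1232 in DESeq2 and 2 to 801 over omissions. CD11c+CD11b+ against CD11c-CD11b+ cells called 4451 genes, 955 without the treatment term and 2694 to 4729 over omissions. Anti-PD-1 called 1310 genes in CD8 T, 1278 in CD11c+CD11b+, 785 in CD11c+CD11b- and 0 in CD11c-CD11b+ cells, against 728, 899, 786 and 408 in DESeq2, 8, 3, 1 and 1 without the other antibody's term, 648, 669, 757 and 728 in 1 fit, and 0 in each with no filter. Anti-SIRPa called 19, 30, 1 and 0 genes in the same order, against 41, 102, 232 and 13 in DESeq2, and its interaction 0, against 25 in DESeq2; the anti-PD-1 interaction called 0, against 202 in DESeq2 and 0 to 52 over omissions.

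Of 1030 member values refitted, 927 kept direction and call, 38 lost the call, 40 gained it and 25 turned direction, all of these below 0.09 in size on the log2 scale. Turned were, for CD11c+CD11b+ against CD11c-CD11b+ cells, Junb (0.0316) and Ier2 (0.0115) without the anti-SIRPa pair, and Junb (0.0476), Ier2 (0.0147), Atf3 (0.0205) and Dusp1 (0.0488) without the anti-PD-1 pair, where the lowest values over omissions were -0.0969, -0.0972, -0.183 and -0.147 for Junb, Ier2, Atf3 and Dusp1; for CD8 T against myeloid cells, Fosb with all 20 libraries (0.0544) and without the anti-PD-1 libraries (0.0865, with -0.166 the lowest over omissions); for anti-PD-1, Fos in CD11c+CD11b+ cells with no filter (-0.0118) and in 1 fit (-0.0227), and Fosb in CD11c-CD11b+ cells with RLE (-0.00369), no filter (-0.00106), DESeq2 (-0.00368) and 1 fit (-0.00514); and for anti-SIRPa, Dusp1 in CD11c+CD11b+ cells with no filter (0.00782) and 1 fit (0.0401), Jun in CD11c+CD11b- cells with RLE (-0.00155), no filter (-0.0106), DESeq2 (-0.00152) and 1 fit (-0.0225), Ier2 there with no filter (-0.000922) and 1 fit (-0.0129), and Atf3 in CD11c-CD11b+ cells with RLE (0.00239), DESeq2 (0.00239) and 1 fit (0.00510). CPM by total count alone moved 5 of 40 population means by more than 1 SD. The correlations over irradiated libraries only were chosen after seeing the data, and 10 of 10 genes most like the members' mean were shared at a prior count of 0.5.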
